A study of Mus musculus with 9 samples.

Results

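The genes described here are the fibroblast growth factors (FGFs), the platelet-derived growth factors (PDGFs), their receptors, and the Sprouty inhibitors of receptor signaling. Members were chosen by a rule on gene names, with earlier results of these data known. They are all protein-coding genes whose symbol is Fgf followed only by a number, with Fgfr1 to Fgfr4, Fgfrl1, Pdgfa to Pdgfd, Pdgfra, Pdgfrb, and Spry1 to Spry4. Of the 37 members of this list, 36 were found among the 50686 genes of the count table, and Spry3 was not analysed here. RNA-Seq had been performed on control MC3T3-E1 cells, on MC3T3-E1 cells exposed to 10 μM SB216763 for 14 days, and on mouse pulmonary endothelial cells (ECs), and each of the 3 groups held 3 libraries (n = 3). MC3T3-E1 is an established mouse osteoblast line, so that each MC3T3 group represents 1 cell line, and SB216763 inhibits GSK3, a kinase that marks β-catenin for breakdown. The time in culture of the control cells, and the strain, age, and treatment of the mice that gave the ECs, are not given in the sources used here. The ECs had been sorted by flow cytometry. Nothing in the labels says that replicates came from separate cultures or animals, and the p-values then measure only the spread between these libraries, which may be technical.

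FGFs are secreted ligands that, together with heparan sulfate, bring pairs of receptor tyrosine kinases (FGFR1 to FGFR4) together, and PDGF dimers do the same with PDGFRα and PDGFRβ. Both receptor families signal through the Ras-ERK and PI3K pathways, and ERK activity in turn induces Sprouty proteins that dampen the signal. In bone, FGFR1 to FGFR3 control the growth and maturation of osteoblasts, and in vessels, PDGF-B released by ECs recruits PDGFRβ-bearing mural cells.

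Levels are given as CPM, counts scaled to a common library size after TMM normalization in edgeR. Levels of different genes are compared as CPM per kilobase of exon, except within the sums of cell type markers, which are in CPM. The libraries held 30990107 to 68946333 counts, so that 3 counts, taken as the smallest level a library can show, equaled 0.0473 to 0.104 CPM. Intervals from counts cover counting error only. Genes were called changed at a Benjamini-Hochberg adjusted p (FDR) under 0.01 in the edgeR quasi-likelihood test, and past the fold threshold when the log2 fold change was also at least 2 in size. As a check of the labels, 10 endothelial markers, including Cdh5 and Pecam1, summed to 7298 to 7483 CPM in the ECs. The same markers summed to 3.37 to 4.04 CPM in the control cells and 3.28 to 3.73 CPM in the SB216763-treated cells. Each of the 10 was under 1 CPM in both MC3T3 groups, and 0 of the 10 changed with SB216763 in edgeR (1 at an unadjusted p under 0.05), DESeq2, or limma-voom. The sum of 8 osteoblast markers was 54024 to 68855 CPM in the control cells, 10070.1 to 10289.8 CPM after SB216763, and 3789 to 3823 CPM in the ECs. The EC sum was mostly that of Sparc, with means of 9664, 1957, and 3755 CPM in the same order of groups. In the ECs, 3 of the 8 were under 1 CPM. All 8 osteoblast markers were lower after SB216763, and 6 passed the fold threshold. The 5 mural markers, led by Acta2, summed to 2861 to 3039, 138 to 155, and 18 to 19.5 CPM in the same order of groups. The 5 leukocyte markers summed to 26 to 27.7, 8.28 to 9.83, and 56.2 to 58.2 CPM, and the 5 lung epithelial markers to at most 0.473 CPM in any library. The leukocyte sum was mostly that of Lyz2 in both MC3T3 groups and of Cd68 in the ECs (mean of 46.6 CPM). Ptprc, Cd3e, and Adgre1 were each under 1 CPM in all groups. The part of these cell types in the results below was not tested. In bulk RNA, fewer cells of a type and less RNA per cell cannot be told apart.

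The families differed in which member dominated and how the members moved with SB216763, and 4 promoter windows show the DNA upstream of genes with opposite changes. GSK3 inhibition stabilizes β-catenin, which acts through TCF/LEF factors, so the shared TCF/LEF core CTTTG and its reverse complement CAAAG were searched on both strands. The windows, which overlap no annotated exon, are the 250 bases before the annotated start in RefSeq on GRCm38.p6, 5′ to 3′ on the strand of the gene, with the core in capitals. Fgfr2 (chr7:130266809-130267058, minus strand) and Pdgfc (chr3:81036166-81036415, plus strand) fell with SB216763, and Fgf7 (chr2:126034408-126034657, plus strand) and Spry2 (chr14:105896820-105897069, minus strand) rose.
Fgfr2: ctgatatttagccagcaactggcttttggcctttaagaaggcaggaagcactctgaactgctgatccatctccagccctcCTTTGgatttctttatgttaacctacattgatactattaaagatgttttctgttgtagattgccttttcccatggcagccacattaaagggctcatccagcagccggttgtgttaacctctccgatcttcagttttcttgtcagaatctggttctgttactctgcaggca
Pdgfc: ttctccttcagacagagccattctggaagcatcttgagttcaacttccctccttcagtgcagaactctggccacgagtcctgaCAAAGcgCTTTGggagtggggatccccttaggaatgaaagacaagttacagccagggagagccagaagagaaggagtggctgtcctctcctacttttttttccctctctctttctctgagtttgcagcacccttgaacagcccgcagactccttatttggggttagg
Fgf7: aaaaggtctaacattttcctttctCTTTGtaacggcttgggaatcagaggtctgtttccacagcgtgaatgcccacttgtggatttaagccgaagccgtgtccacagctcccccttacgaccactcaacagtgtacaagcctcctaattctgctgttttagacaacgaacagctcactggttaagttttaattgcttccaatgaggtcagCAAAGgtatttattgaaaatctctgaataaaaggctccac
Spry2: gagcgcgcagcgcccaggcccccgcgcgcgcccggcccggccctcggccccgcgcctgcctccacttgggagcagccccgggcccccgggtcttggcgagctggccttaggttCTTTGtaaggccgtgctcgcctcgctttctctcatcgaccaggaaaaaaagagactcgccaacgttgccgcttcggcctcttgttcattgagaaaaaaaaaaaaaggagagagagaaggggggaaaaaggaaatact
The windows printed here all held the core, but not all windows of changed members did. Those of Fgf18, Fgf21, Fgfr3, and Pdgfa, which fell, and of Fgf11 and Spry1, which rose, lacked it. The windows of Fgf2, Fgfrl1, and Pdgfra, which rose, held it. Whether the core differs between genes that fell and genes that rose was not tested. Of the 34 annotated promoter windows of 26 members, 17 (50%) held the core, compared with 48.6% of 32851 mouse promoters of the same length. The longer form CTTTGAT on either strand, which contains the core, was found in 1 of the 34 windows, that of Fgf6, or 2.94%, against 3.21% of all promoters. An ETS motif of the ERK-responsive ETV factors, CCGGAAG on either strand, was also found in 1 window (2.94%), that of Fgfrl1, against 6.91% of all promoters. A match is a stretch of letters and not a bound site.

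Of the 36 members, 20 had enough counts to be tested and 16 did not. Of the 20, 15 passed the filter on low counts in all 3 groups, Fgf1 and Spry4 passed it in the treated cells and ECs, Fgf18 and Fgf21 in the control cells, and Fgf22 in the ECs. Those 5 had to be higher in the group that carried them through. After SB216763, 11 members were higher, 7 were lower, and 2 did not pass the test, whereas 32.9% of the 15531 genes tested were higher and 32.0% lower. Past the fold threshold, 3 members were higher and 5 were lower, with 3.81% and 5.84% of all tested genes. Fgf1 and Spry4 were among the 3, and Fgf18 and Fgf21 among the 5, so these directions were set by the filter. The median log2 fold change of the tested members was 0.86, and that of all tested genes was 0.01.

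Compared with the control cells, the ECs had higher levels of 6 members and lower levels of the other 14 tested, with 39.0% and 37.9% of all genes. Of these, 5 and 9 passed the fold threshold, with 13.5% and 9.87% of all genes. Fgf1 and Spry4 were among the 5, Fgf18 and Fgf21 among the 9, and Fgf22 among the 6, with directions set by the filter. The median of the members was -1.38, and that of all genes was 0.01. Between the ECs and the treated cells, 6 members were higher in the ECs, 11 were lower, and 3 did not pass, with 40.3% and 38.3% of all genes, and the median was -1.96 against 0.02. Past the fold threshold, 3 members were higher and 10 lower in the ECs, with 15.0% and 10.3% of all genes. Fgf22, which passed the filter only in the ECs, was among the 3. The 3 comparisons share libraries and are not independent of each other.

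**Figure D1:**
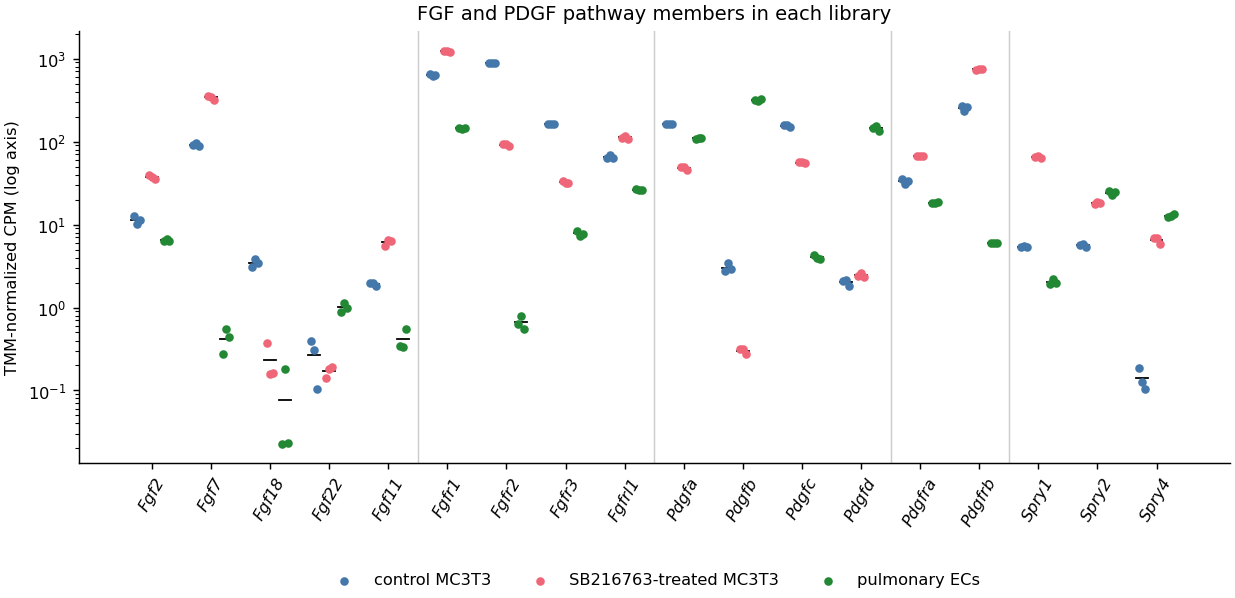
Levels of the 18 members named on the horizontal axis, as TMM-normalized CPM on a log axis. Each point is 1 library (3 control, 3 SB216763-treated MC3T3, 3 pulmonary ECs), and black lines mark group means. Fgfr2 fell from a mean of 889.6 to 91.7 CPM with SB216763 and was 0.663 CPM in the ECs, whereas Pdgfb had a mean of 316 CPM in the ECs and of 3.01 and 0.3 CPM in the control and treated cells.

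The FGF receptors showed a switch in the most abundant member. Fgfr2, the receptor whose splice forms bind FGF7 or FGF18 among others, had the highest level per length in the control cells, and Fgfr1, the main receptor of mesenchymal cells, had the highest in the treated cells and in the ECs. Fgfr2 was at 891, 880.2, and 898 CPM in the control libraries, 93.7, 93.2, and 88.3 CPM in the treated libraries, and 0.641, 0.792, and 0.556 CPM in the EC libraries. The groups did not overlap. The level was 9.70-fold lower after SB216763 (log2 fold change -3.28, SE 0.05, edgeR adjusted p = 4.9e-17). It was 1357-fold lower in the ECs than in the control cells (-10.41, SE 0.08, edgeR adjusted p = 1.63e-20).

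Fgfr1 moved the other way with SB216763. Its level was 649, 624, and 636 CPM in the control libraries, 1239, 1240.4, and 1204 CPM in the treated libraries, and 145, 142, and 147 CPM in the ECs. The treated libraries were the highest and the ECs the lowest, with no overlap. The rise was 1.93-fold (log2 fold change 0.95, SE 0.05, edgeR adjusted p = 2.23e-11), and the ECs were 4.4-fold lower than the control cells (-2.14, SE 0.05, edgeR adjusted p = 4.5e-16).

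Fgfr3, a receptor that restrains cartilage growth and is also expressed by osteoblasts, fell with Fgfr2. The 3 control libraries were at 163, 163, and 162 CPM, the treated libraries at 33.3, 31.9, and 31.6 CPM, and the ECs at 8.36, 7.34, and 7.78 CPM. The drop with SB216763 was 5.05-fold (log2 fold change -2.33, SE 0.05, edgeR adjusted p = 4.74e-16). Fgfrl1, which binds FGFs but lacks the tyrosine kinase domain, rose 1.71-fold from 65.5 ± 3.19 to 112 ± 4.78 CPM (SD, n = 3; edgeR adjusted p = 4.87e-10) and was 26.3 ± 0.485 CPM in the ECs. Fgfr4 was nearly undetected, with 4, 6, and 4 counts in all libraries of the control, treated, and EC groups.

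Per kilobase of exon, the levels of the 4 kinase receptors were summed. The sum was 173 ± 1.88 CPM per kb in the control cells, 138 ± 2.44 in the treated cells, and 15.8 ± 0.305 in the ECs (SD, n = 3). Fgfr1 made up 37.6%, 36.9%, and 37% of this sum in the control libraries, 90.1%, 90.3%, and 90.4% in the treated libraries, and 92.3%, 92.8%, and 92.8% in the ECs. The difference of 53.1 percentage points between treated and control cells was far larger than the pooled SD of 0.28. An exact 2-sided permutation test gave p = 0.1, the smallest value that 3 against 3 libraries allow. The share of Fgfr2 went from 49.7% ± 0.321 to 6.45% ± 0.0998 and was 0.407% ± 0.0815 in the ECs, and that of Fgfr3 was 13.1% ± 0.162, 3.27% ± 0.0701, and 6.92% ± 0.385. Fgfr1 thus led in both the treated cells and the ECs, at very different sums.

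**Figure D2:**
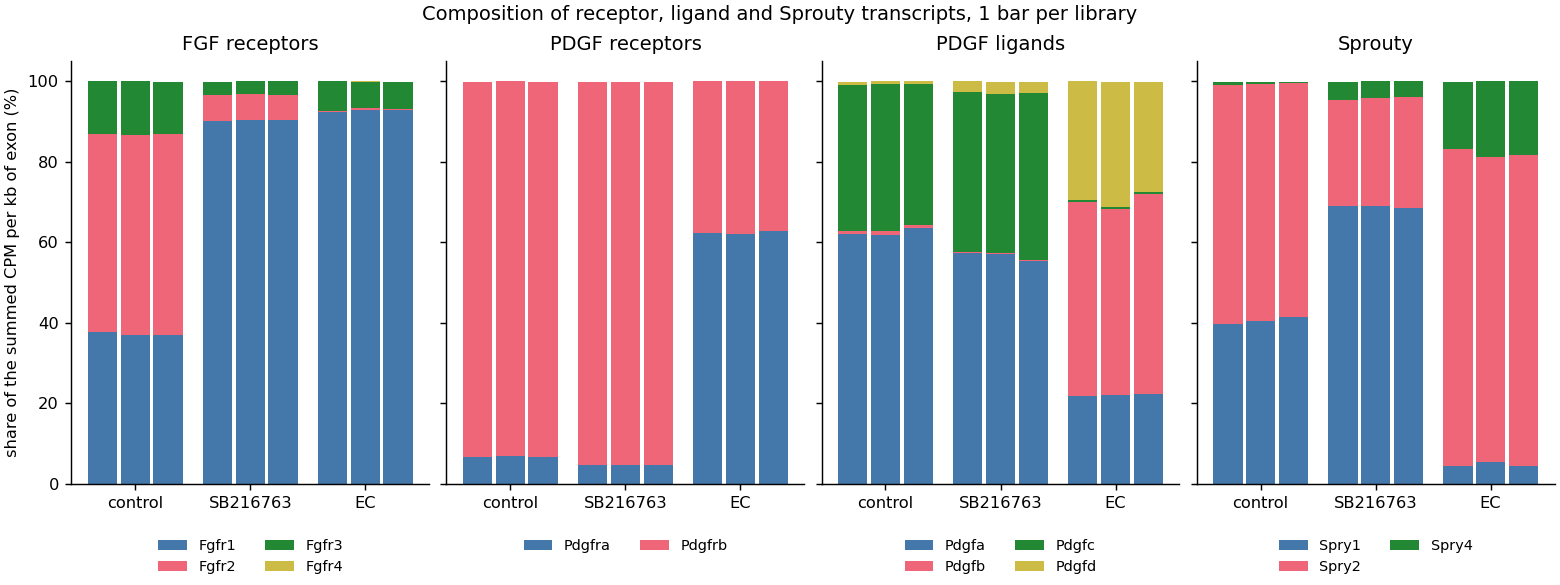
Share of each gene in the summed CPM per kilobase of exon of its family, in percent, for FGF receptors, PDGF receptors, PDGF ligands, and Sprouty genes, with 1 stacked bar per library in the order control, SB216763, EC. Fgfr1 filled about 37% of the FGF receptor bars in the control cells and over 90% in the treated cells and ECs, while the PDGF ligand bars of the ECs were mostly Pdgfb (48%) and Pdgfd (29.3%).

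Among the secreted FGFs, Fgf7 and Fgf2 rose with SB216763 and Fgf18 fell. Fgf7, also called keratinocyte growth factor, is made by mesenchymal cells and acts on the epithelial splice form of FGFR2. It had 90.1, 95.6, and 87.6 CPM in the control libraries, 353, 348, and 321 CPM in the treated libraries, and 0.275, 0.548, and 0.44 CPM in the EC libraries. Treated libraries were highest and ECs lowest throughout. The rise was 3.74-fold (log2 fold change 1.9, SE 0.06, edgeR adjusted p = 7.92e-14), and the ECs were 221-fold below the control cells (-7.79, SE 0.11, edgeR adjusted p = 1.37e-18).

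Fgf2, or basic FGF, is a mitogen for ECs and osteoblast progenitors. Its values were 12.6, 10.2, and 11.4 CPM in the control libraries, 39.2, 37, and 35.4 CPM in the treated libraries, and 6.39, 6.67, and 6.32 CPM in the ECs. All 3 treated libraries were above all control libraries, which were above the ECs. It rose 3.26-fold (log2 fold change 1.7, SE 0.07, edgeR adjusted p = 3.65e-12), and the ECs were 1.77-fold below the control cells (-0.82, SE 0.08, edgeR adjusted p = 1.46e-07).

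Fgf18 promotes osteoblast differentiation and skeletal growth. It was at 3.06, 3.86, and 3.47 CPM in the control libraries and at 0.373, 0.156, and 0.163 CPM in the treated libraries. The EC libraries held 1, 6, and 1 counts. The drop with SB216763 was 15-fold (log2 fold change -3.91, SE 0.3, edgeR adjusted p = 7.37e-09). Fgf18 passed the filter on low counts only in the control cells, so this direction was set by the filter. The treated cells and the ECs overlapped, and their difference did not pass (-1.72, 95% interval -3.10 to -0.33, edgeR adjusted p = 0.0227). Without EC replicate 2, which held 6 of the 8 EC counts, the difference was -3.15 with an edgeR adjusted p of 0.00138.

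Fgf1, or acidic FGF, which can bind all FGF receptors, was close to absent in the control cells. The control libraries held 1, 0, and 0 counts, compared with 15, 16, and 12 counts after SB216763 and 25, 25, and 26 counts in the ECs, which equaled at most 0.761 CPM. Scaled to library size, the ratio of treated to control was 57.6, with an exact 95% counting interval of 9.79 to 2326, and the edgeR adjusted p was 9.89e-07. Without control replicate 1, which held the single control count, the fitted log2 fold change went from 5.33 to 6.95. Fgf1 did not pass the filter on low counts in the control cells, so the direction against control was set by the filter. Between the ECs and the treated cells the difference did not pass (log2 fold change 0.7, 95% interval 0.12 to 1.29, edgeR adjusted p = 0.0269), although the libraries did not overlap.

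Fgf22, a presynaptic organizer in the brain related to Fgf7, was highest in the ECs. It was at 0.394, 0.309, and 0.104 CPM in the control libraries, 0.143, 0.182, and 0.191 CPM in the treated libraries, and 0.893, 1.13, and 0.996 CPM in the ECs. The 2 MC3T3 groups overlapped, and the log2 difference of -0.78 (95% interval -1.66 to 0.09) did not pass (edgeR adjusted p = 0.0993). The ECs were 3.31-fold above the control cells (log2 fold change 1.73, SE 0.29, edgeR adjusted p = 4.32e-05). Fgf22 passed the filter on low counts only in the ECs, so this direction was set by the filter.

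As levels per length, Fgf7 was the leading FGF of both MC3T3 groups and not of the ECs. Fgf7 formed 85.4% ± 0.225 of the summed CPM per kb of the 15 receptor-binding FGFs in the control cells, 94.6% ± 0.144 in the treated cells, and 6.42% ± 1.39 in the ECs. Fgf2 formed 5.13% ± 0.679, 4.94% ± 0.112, and 48.4% ± 5.47 in the same order, and Fgf22 formed 22.6% ± 0.648 in the ECs. The sums were 32.9 ± 1.41, 111 ± 5.5, and 1.99 ± 0.243 CPM per kb (SD, n = 3), so that the EC shares rest on low levels.

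The other 10 receptor-binding FGFs were not tested. Fgf3, Fgf4, Fgf6, Fgf10, and Fgf20 had 0 counts in all 9 libraries, where 3 counts would equal at most 0.104 CPM. Fgf9, a growth factor of mesenchyme and bone, had 42 counts over the control libraries, 6 over the treated libraries, and 7 over the ECs. In the same order, Fgf17 had 5, 20, and 28 counts and Fgf8 had 0, 3, and 0. Fgf5, an inhibitor of hair growth, had 0, 2, and 11 counts in the same order. Fgf16 had 1, 1, and 17 counts, 11 of them in EC replicate 3, and the ratio of ECs to control was 20.9 (exact 95% counting interval 3.28 to 874).

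The endocrine FGFs, which act at a distance through Klotho co-receptors, were scarce. Fgf21, a metabolic hormone best known from liver, was detected mainly in the control libraries, with 28, 20, and 18 counts. The treated libraries held 0, 1, and 2 counts and the ECs 0, 0, and 1. Fgf21 passed the filter on low counts only in the control cells, so this direction was set by the filter. The control level was 16.4 times that of the treated cells (exact 95% counting interval 5.38 to 81.7; edgeR adjusted p = 1.6e-05). The fitted log2 fold change of -3.92 became -4.79 without SB216763 replicate 3. Fgf15 and Fgf23, which act on bile acid and phosphate balance, were at 0 counts in the control cells and at most 3 in either other group.

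The intracellular FGF homologous factors bind voltage-gated sodium channels and are not secreted. Of the 4, Fgf11 was tested, with 1.95, 2, and 1.81 CPM in the control libraries, 5.48, 6.49, and 6.32 CPM in the treated libraries, and 0.344, 0.335, and 0.556 CPM in the ECs. Treated libraries were highest and EC libraries lowest. The rise with SB216763 was 3.15-fold (log2 fold change 1.65, SE 0.13, edgeR adjusted p = 6.36e-09). Fgf12, Fgf13, and Fgf14 had at most 7 counts in any group.

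Of the PDGF ligands, Pdgfa, Pdgfb, and Pdgfc fell with SB216763. Pdgfa, which signals mainly through PDGFRα, had 165 CPM in each control library, 49.4, 49.6, and 44.9 CPM in the treated libraries, and 108, 109.6, and 109.5 CPM in the ECs. The treated cells were below both other groups. The drop was 3.44-fold (log2 fold change -1.78, SE 0.05, edgeR adjusted p = 1.07e-14), and the ECs were 1.52-fold below the control cells (-0.6, SE 0.04, edgeR adjusted p = 3.31e-09).

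Pdgfc, secreted in a latent form and activated by proteases such as tissue plasminogen activator, was at 158, 158, and 148 CPM in the control libraries. It was at 56, 56.1, and 54.8 CPM in the treated libraries and at 4.35, 3.99, and 3.85 CPM in the ECs. The 3 groups were well apart. It fell 2.78-fold with SB216763 (log2 fold change -1.48, SE 0.05, edgeR adjusted p = 8.52e-14), and the ECs were 38-fold below the control cells (-5.25, SE 0.06, edgeR adjusted p = 1.55e-19).

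Pdgfb, the ligand by which ECs recruit pericytes, was highest in the ECs. It had 316, 305, and 327 CPM in the ECs, 2.76, 3.4, and 2.88 CPM in the control libraries, and 0.315, 0.313, and 0.272 CPM in the treated libraries. The treated cells were the lowest group and the control cells lay between. Pdgfb was 9.99-fold lower after SB216763 (log2 fold change -3.32, SE 0.16, edgeR adjusted p = 2.41e-11), and the ECs were 104-fold above the control cells (6.71, SE 0.07, edgeR adjusted p = 6.39e-20). Compared with the treated cells, the ECs were 1042-fold higher (10.02, SE 0.1, edgeR adjusted p = 3.95e-20).

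Pdgfd, a PDGFRβ ligand that is also activated by proteolysis, was likewise highest in the ECs. It had 147, 156, and 136 CPM in the ECs, 2.09, 2.13, and 1.84 CPM in the control libraries, and 2.38, 2.61, and 2.31 CPM in the treated libraries. The ECs were 71.1-fold above the control cells (log2 fold change 6.15, SE 0.07, edgeR adjusted p = 2.53e-19). The treated libraries lay just above the control libraries, and the log2 difference of 0.25 (95% interval 0.00 to 0.49) did not pass (edgeR adjusted p = 0.0651). Scaled by library size only, it was 0.45 with an adjusted p of 0.00238.

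The sum of the 4 PDGF ligands was 84.7 ± 1.13 CPM per kb in the control cells, 27.2 ± 1.04 in the treated cells, and 158 ± 0.586 in the ECs (SD, n = 3). Pdgfa and Pdgfc together made up most of the sum in both MC3T3 groups, with 62.5% ± 0.944 and 35.9% ± 0.871 in the control cells and 56.6% ± 1.02 and 40.3% ± 1.04 in the treated cells. In the ECs, Pdgfb (48% ± 1.8) and Pdgfd (29.3% ± 1.87) led, and Pdgfc formed 0.505% ± 0.0327.

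While 3 of the 4 ligands fell, both PDGF receptors rose with SB216763. Pdgfrb, the receptor of pericytes, smooth muscle cells, and fibroblasts, was at 272, 231, and 258 CPM in the control libraries, 739, 744, and 755 CPM in the treated libraries, and 5.98, 6, and 5.98 CPM in the ECs. Treated libraries were highest and ECs lowest. The rise was 2.94-fold (log2 fold change 1.56, SE 0.06, edgeR adjusted p = 5.08e-13), and the ECs were 42.3-fold below the control cells (-5.4, SE 0.07, edgeR adjusted p = 7.29e-19). Of the 5 mural markers, 4 were tested, and 3 of these were lower after SB216763 and 1 did not pass. Their summed level was mostly that of Acta2.

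Pdgfra, the receptor of mesenchymal and oligodendrocyte progenitors, was at 35.1, 31, and 33.8 CPM in the control libraries, 66.3, 66.9, and 67.8 CPM in the treated libraries, and 18.1, 18.1, and 18.5 CPM in the ECs. The groups did not overlap. It rose 2.01-fold (log2 fold change 1.01, SE 0.05, edgeR adjusted p = 1.73e-11), and the ECs were 1.83-fold below the control cells (-0.87, SE 0.05, edgeR adjusted p = 1.87e-10).

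Pdgfra formed 6.58%, 6.84%, and 6.68% of the summed CPM per kb of the 2 receptors in the control libraries and 4.67%, 4.68%, and 4.68% in the treated libraries. The difference of -2.02 percentage points exceeded the pooled SD of 0.0927, and the exact 2-sided permutation p was 0.1, the smallest this design allows. In the ECs, the share of Pdgfra was 62.3%, 62.2%, and 62.9%. The sum was 49.6 ± 4.04 CPM per kb in the control cells, 143 ± 1.51 in the treated cells, and 2.91 ± 0.0243 in the ECs (SD, n = 3). The share of the ECs was therefore taken from a low total.

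**Figure D3:**
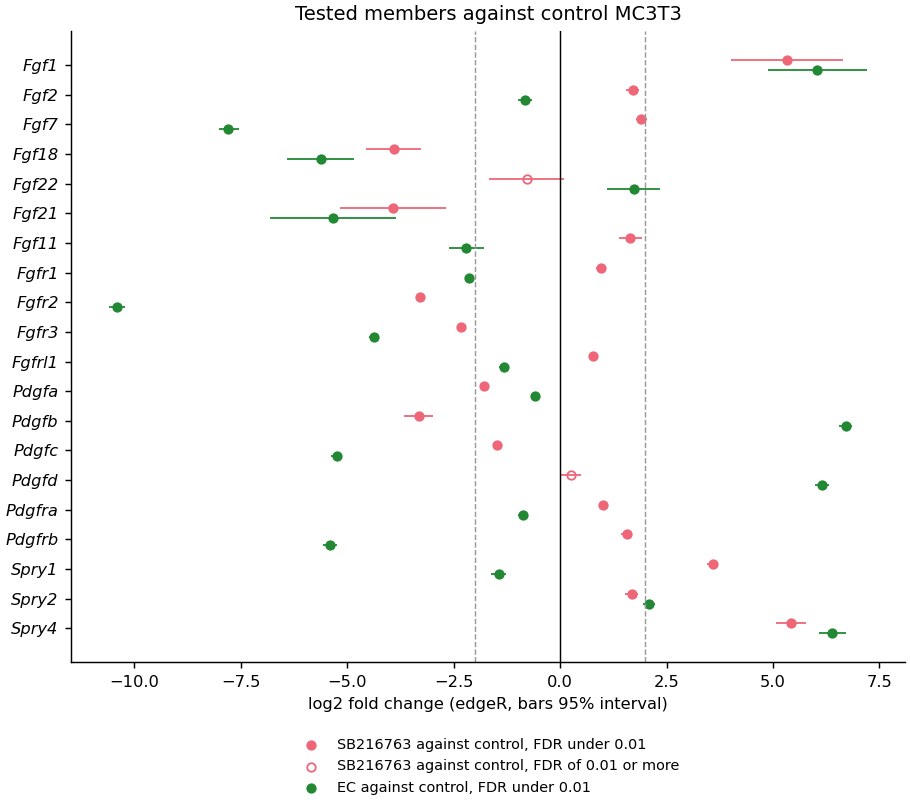
Log2 fold changes of the 20 tested members against control MC3T3, for the SB216763-treated cells and the ECs, with bars for the 95% interval. Filled points passed an FDR of 0.01, open points did not, and dashed lines mark a log2 fold change of 2 in either direction. Pdgfb was lower after SB216763 (-3.32) and higher in the ECs (6.71), and Pdgfrb was higher after SB216763 (1.56) and lower in the ECs (-5.4).

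All 3 Sprouty genes analysed rose with SB216763. Sprouty proteins are intracellular antagonists of Ras-ERK signaling from FGF and other receptor tyrosine kinases. Spry1 was at 5.34, 5.59, and 5.38 CPM in the control libraries, 65.2, 67.2, and 63 CPM in the treated libraries, and 1.92, 2.19, and 1.95 CPM in the ECs. The treated libraries were far above the others. The rise was 12-fold (log2 fold change 3.58, SE 0.06, edgeR adjusted p = 5.26e-17), whereas the ECs were 2.71-fold below the control cells (-1.44, SE 0.08, edgeR adjusted p = 1.75e-10).

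Spry4, which restrains angiogenic signaling in ECs, was at 0.189, 0.127, and 0.104 CPM in the control libraries, 6.91, 6.8, and 5.88 CPM in the treated libraries, and 12.4, 12.7, and 13.3 CPM in the ECs. The control libraries held 12, 7, and 3 counts. Spry4 did not pass the filter on low counts in the control cells, so the direction against control was set by the filter. The rise was 42.9-fold (log2 fold change 5.42, SE 0.17, edgeR adjusted p = 8.43e-14), and the ECs were 84-fold above the control cells (6.39, SE 0.15, edgeR adjusted p = 8.95e-16). The ECs were also 1.96-fold above the treated cells (0.97, SE 0.08, edgeR adjusted p = 1.52e-08).

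Spry2 was at 5.72, 5.86, and 5.42 CPM in the control libraries, 17.9, 18.7, and 18.1 CPM in the treated libraries, and 25.4, 22.5, and 24.6 CPM in the ECs. The order was control, treated, ECs, without overlap. The rise was 3.2-fold (log2 fold change 1.68, SE 0.07, edgeR adjusted p = 2.51e-12), and the ECs were 1.33-fold above the treated cells (0.41, SE 0.06, edgeR adjusted p = 1.04e-05). By level per length, Spry2 led in the control cells (58.8% ± 0.66 of the Sprouty sum) and the ECs (77.3% ± 1.49), and Spry1 led in the treated cells (68.9% ± 0.258). The Sprouty sum was 4.62 ± 0.144, 32.5 ± 0.969, and 15 ± 0.67 CPM per kb in the control cells, treated cells, and ECs (SD, n = 3).

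Beside the Sprouty genes, 15 other ERK feedback and target genes were examined. ERK activity itself was not measured in these libraries, and its part in the changes was not tested. With SB216763, 12 were higher, 2 were lower, and 1 did not pass, and 6 were higher past the fold threshold. The higher genes were 80% of the list and the lower genes 13.3%, compared with 32.9% and 32.0% of all tested genes. The 6 past the fold threshold were 40% of the list, compared with 3.81% of all tested genes. The median log2 fold change was 1.31, against 0.01. Dusp6, a phosphatase that inactivates ERK, rose 10.6-fold, from 7.06 ± 0.435 to 75.6 ± 3.56 CPM, and was 275 ± 2.73 CPM in the ECs (SD, n = 3; log2 fold change 3.41, SE 0.06, edgeR adjusted p = 8.59e-17). Dusp4, a related phosphatase, rose 14.1-fold from 0.611 to 9 CPM and was 128 CPM in the ECs.

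Of the 3 ETS factors of the ETV group, which act downstream of FGF signaling, Etv1 and Etv5 rose. Etv1 rose 24.3-fold from 0.476 to 11.3 CPM (log2 fold change 4.61, SE 0.13, edgeR adjusted p = 4.24e-14), and Etv5 rose 6.53-fold from 9.4 ± 0.38 to 61.8 ± 3.97 CPM (SD, n = 3; 2.71, SE 0.06, edgeR adjusted p = 1.49e-15). Etv4 was at 1.83 and 2.12 CPM and did not pass (0.22, edgeR adjusted p = 0.191). Phlda1, an immediate target of growth factor signaling, rose 7.38-fold from a mean of 2 to 14.5 CPM, and Spred1, a Sprouty-related inhibitor of Ras, rose from 136 to 338 CPM (log2 fold change 1.31). The 2 genes that fell, named here after their values were seen, were Dusp7 (95.1 to 42.4 CPM) and Fos (2.25 to 1.19 CPM). In the ECs, 12 of the 15 genes were higher than in the control cells and 3 were lower, with 39.0% and 37.9% of all genes, and 9 were higher past the fold threshold, with 13.5% of all genes. Etv1 and Etv5 were lower in the ECs than in the treated cells (log2 fold changes -3.04 and -1.36), and Dusp4 and Dusp6 were higher (3.82 and 1.87).

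**Figure D4:**
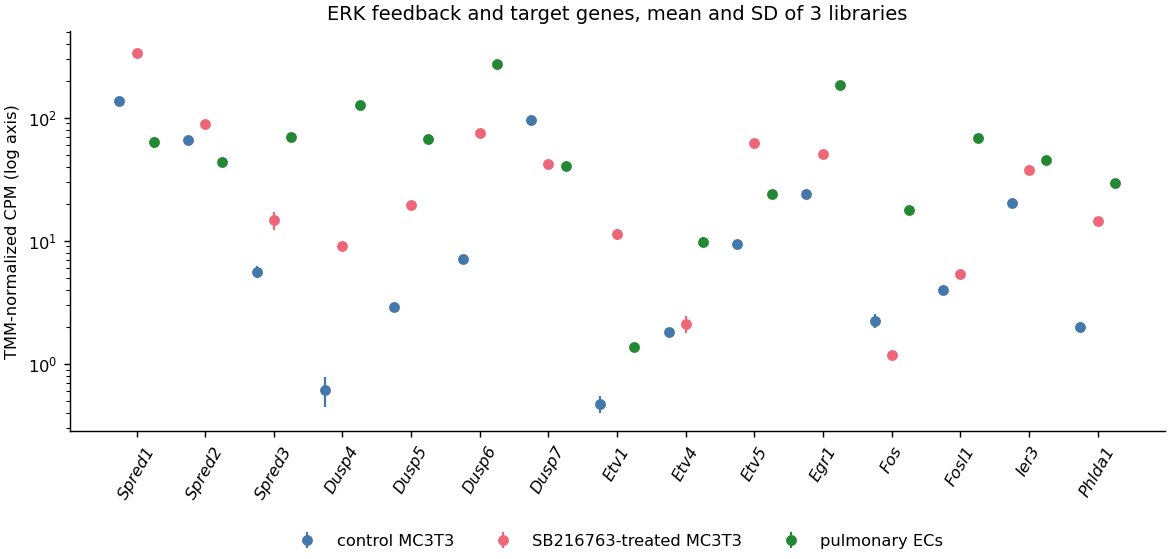
Levels of the 15 ERK feedback and target genes, as TMM-normalized CPM on a log axis. Points are the means of 3 libraries and bars the SD, for control MC3T3, SB216763-treated MC3T3, and pulmonary ECs. Dusp6 rose from 7.06 to 75.6 CPM with SB216763 and was 275 CPM in the ECs, whereas Etv4 was near 2 CPM in both MC3T3 groups.

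The adaptors and kinases that carry the signal to ERK were examined next. Of 16 receptor adaptors, 9 (56.2%) were higher with SB216763, 1 (6.25%) was lower, and 6 did not pass, against 32.9% and 32.0% of all tested genes, with log2 fold changes of at most 1.28 in size. Frs2, the main docking protein of FGF receptors, was at 160.1 and 148 CPM in the control and treated cells (log2 difference -0.12, edgeR adjusted p = 0.0312) and at 38 CPM in the ECs. Of 11 genes of the Ras-ERK cascade, 4 (36.4%) were higher, 4 (36.4%) were lower, and 3 did not pass, shares close to those of all tested genes, with log2 fold changes of at most 1.68 in size. The median log2 fold changes of the adaptors and of the cascade were 0.18 and -0.09.

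Of the 8 FGF co-receptors and binding proteins, 5 were tested, of which 3 (60%) were higher with SB216763, 1 (20%) was lower, and 1 did not pass, against 32.9% and 32.0% of all tested genes. Flrt2, a transmembrane protein that binds FGF receptors, rose 8.59-fold from 24.9 ± 3.16 to 215 ± 1.06 CPM and was 139 ± 6.99 CPM in the ECs (SD, n = 3; log2 fold change 3.1, SE 0.07, edgeR adjusted p = 3.56e-15). Il17rd, also known as Sef, an inhibitor of FGF signaling, rose 4.62-fold from 12.3 ± 1.64 to 56.3 ± 1.25 CPM and was 2.61 ± 0.303 CPM in the ECs (SD, n = 3). Klb, the co-receptor of FGF21, had 9, 10, and 11 counts in the control, treated, and EC groups and was not tested.

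Heparan sulfate genes, which build and edit the sugar chains that present FGFs to their receptors, were examined as well. Of 16, 13 were tested, and 6 (46.2%) were higher, 5 (38.5%) were lower, and 2 did not pass, against 32.9% and 32.0% of all tested genes. Hs6st2, a 6-O-sulfotransferase, fell 6.54-fold from 174 to 26.6 CPM (log2 fold change -2.71, SE 0.07, edgeR adjusted p = 1.98e-14). Hpse, the enzyme that cuts heparan sulfate, fell from 1.03 to 0.0645 CPM. It had 143 counts over the control libraries and 7 over the treated libraries, so the treated level was near the smallest a library can show. Sulf1, an extracellular 6-O-endosulfatase, was at 2 counts over the control libraries, 74 over the treated libraries, and 10517 over the ECs. The ratio of treated to control was 49.5 (exact 95% counting interval 13.2 to 417; edgeR adjusted p = 1.55e-08). Sulf2, its close relative, fell from 397 to 273 CPM (-0.54, edgeR adjusted p = 1.41e-08).

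Of 8 genes for PDGF processing and binding, 4 (50%) were higher, 3 (37.5%) were lower, and 1 did not pass, against 32.9% and 32.0% of all tested genes. Pcsk6, a proprotein convertase of the furin family, fell 139-fold from 56.2 ± 2.04 to 0.397 ± 0.132 CPM and was 64.2 ± 2.01 CPM in the ECs (SD, n = 3; log2 fold change -7.12, SE 0.1, edgeR adjusted p = 1.55e-17). Over all 6 lists of other pathway genes, 38 of 68 tested genes (55.9%) were higher, 16 (23.5%) were lower, and 14 did not pass, against 32.9% and 32.0% of all tested genes. The median log2 fold change was 0.4, against 0.01.

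Several members share exons with other genes, and since the strand setting of the counting is not given in the sources used here, their reads cannot be fully told apart. The exons of Pdgfa (chr5:138976014-138997370 on GRCm38, GENCODE M21) overlap the antisense gene 6330403L08Rik over 26.1% of their length, and this gene was at 14.1, 8.05, and 28.8 CPM in the control cells, treated cells, and ECs. Spry1 (chr3:37639947-37644598) shares 24.4% with the antisense gene Gm42922, which was at most 0.235 CPM. Fgf2 (chr3:37348346-37410108) shares 9.44% with Nudt6, at 0.711, 0.785, and 1.21 CPM. Fgfr2 shares 3.04% with Ctbp2 on its own strand, at 53.1, 31.3, and 64.9 CPM, and Fgf22 shares 3.65% with Rnf126, at 83.7, 57.7, and 61.8 CPM. In the same annotation, Fgfr1 lies at chr8:25513654-25575718, Fgfr3 at chr5:33721674-33737068, Pdgfb at chr15:79995874-80014977, and Pdgfra at chr5:75152292-75198215.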

How the data were processed

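RNA-Seq libraries of control MC3T3-E1 cells, SB216763-treated MC3T3-E1 cells, and pulmonary ECs of the mouse, 3 per group, entered the analysis. The authors deposited unnormalized gene counts in 1 table. The submitters' processing notes name STAR 2.5.3a and GRCm38, and the annotation and strand setting are not given in the sources used here. The protocol text of the labels gives SB216763 for 14 days for all samples, control cells and ECs included, so groups were taken from titles and treatment entries. All columns were matched to libraries by name.

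Members, gene lists, and thresholds were chosen with earlier results of these data known, and all members are accounted for. Of the other pathway genes, those named are the 4 with the largest log2 fold change past the fold threshold in each list, with SB216763 against control, and Dusp6, Spred1, Etv4, Etv5, Frs2, Klb, Sulf1, and Sulf2. Dusp7 and Fos were named after their values were seen.

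Counts were tested in R 4.3.3 with edgeR 4.0.16 (filterByExpr, TMM, glmQLFit, and glmQLFTest) in 1 fit of 9 libraries, with Benjamini-Hochberg adjustment over 15531 genes and a prior count of 0.125. The SE is the log2 fold change divided by the square root of F. Lengths are exon unions of GENCODE M21. Promoter windows of RefSeq for 26 members were used here, and those of the other 10 were not analysed here. Replicates differed by more than sampling noise in each group. The chi-square per gene was 29.1 to 115 between control libraries, 3.35 to 29.1 between treated libraries, and 3.01 to 4.88 between EC libraries. On simulated counts for SB216763 against control (15318 genes), edgeR called 100 of 100 genes changed by a log2 of 1 and 100 of 100 changed by a log2 of 3, with 1 false call. The changed genes were drawn from those above 1 CPM, with the same spread for all genes and libraries, slightly below the spread fitted to the data. Low-count members, and genes or libraries with a wider spread, are therefore not covered by the simulation.

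Alternatives were DESeq2 1.42.0, limma-voom (limma 3.58.1), other scalings and filters, fits of 2 groups, other thresholds and lengths, a replicate block, and leaving out each library.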

Additional observations from a re-analysis of the deposited data

How the results depend on the processing

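For the log2 fold changes of members at the FDR (60 comparisons, 1077 alternative values), no direction reversed, no call was lost, and 6 values gained a call. These were Pdgfd with library size only (SB216763 against control), Fgf1 at an FDR of 0.05, and Fgf18 with DESeq2, without a filter, at an FDR of 0.05, and without EC replicate 2, both for ECs against treated cells. Scaling by library size only moved the median of all genes from 0.01 to 0.22 with SB216763 (63.7% of calls higher, against 50.7%) and to 0.13 for ECs against control, where DESeq2 gave 0.14. With SB216763, 9 members were higher past a fold threshold of 1 on the log2 scale, compared with 3 past 2. Testing directly for changes beyond the fold threshold lost some of its calls: 4 members in place of 5 were lower with SB216763, 4 in place of 5 were higher and 8 in place of 9 lower in ECs against control, and 2 in place of 3 were higher and 8 in place of 10 lower in ECs against treated cells. In ECs against control, 8 were higher past the fold threshold without a filter, compared with 5, since more low-count members were tested. The shares of all genes were not counted at a threshold of 1, in the direct test, or without a filter, so these counts of members have no background beside them. The Fgfr1 share differed by 55 percentage points with the longest transcript as length. The Pdgfra share differed by -2.79 with that length, -3.38 with no length, and -2.13 with 1 CPM added.

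Leaving out 1 library gave, with SB216763, 11 to 12 members higher, 7 lower, and 3 to 4 and 5 past the fold threshold. The ranges were 6 to 7, 14, 5 to 6, and 9 for ECs against control, and 6, 11 to 12, 3, and 10 for ECs against treated cells. The difference in the Fgfr1 share between treated and control cells ranged from 53 to 53.3 percentage points. That in the Pdgfra share ranged from -2.08 to -1.95 percentage points. Single libraries moved the log2 fold change of low-count members. Fgf1 with SB216763 was 6.95 without control replicate 1, Fgf18 in ECs against control was -7.06 without EC replicate 2, and Fgf21 was -7.26 without EC replicate 3 in the same comparison and -4.79 without SB216763 replicate 3 in treated cells. Whether same-numbered libraries were paired is not given in the sources used here. The correlation of their deviations from the group means was 0.00286, 0.123, and 0.081 for control and treated replicates 1, 2, and 3. Of the 6 control and treated libraries, 4 correlated best with their own number, a hint from the data and not from the design. A fit with the replicate number as a block gave 11 members higher and 7 lower with SB216763, the same counts as without it, and changed no other call. Depth limits the members under 1 CPM in every group, which are 18 of the 36.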
